A study of Mus musculus with 44 samples.

Results

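The question asked of the lung transcriptome was whether tumour changed it differently in mice with a mutated Timp2 gene than in wild-type mice. For each gene the difference between tumour-bearing and tumour-free lungs of mutant mice was compared with the same difference in wild-type mice. Both differences are on a log2 scale, and their gap is called the interaction below. A negative interaction means that the value with tumour, relative to tumour-free lungs, was lower in mutant than in wild-type mice. The comparison used 20 of the 44 samples of the series, chosen by genotype, model and treatment labels, 5 in each of 4 groups. All mice were of strain C57BL6j, and RNA was purified from a lung piece of each sample and enriched for polyadenylated transcripts. In the tumour-free groups, WT (genotype wt) and MT2 (genotype mutant Timp2), the treatment label is Tumor-free. The other two groups, of the same genotypes, had received 1 M LL/2-Luc2 cells in 50 µL of PBS through the trachea and the vehicle HBSS, a buffered salt solution, and are called WT tumour and MT2 tumour lungs. LL/2 is a Lewis lung carcinoma line, and Luc2 is a luciferase reporter that it carries. The labels used here give neither age nor sex nor the kind of mutation. The label for the cell line is present on these tumour-free samples as well, yet the reporter was listed at 0 in each of them. Tumour-free and tumour lungs carry sample numbers from separate ranges, so a difference of cohort or batch cannot be told apart from tumour. The numbers of tumour lungs run in separate blocks by genotype, whereas those of tumour-free WT and MT2 lungs are mixed. An effect of order or batch among tumour lungs thus cannot be told apart from genotype there, nor from the interaction.

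TIMP2 is secreted and inhibits matrix metalloproteinases, which cut collagens and other proteins of the extracellular matrix. It also takes part in the activation of MMP2 at the cell surface together with MMP14, and it binds receptors such as integrins. A tumour that grows in the lung displaces alveoli, airways and vessels and is entered by fibroblasts, vessels and leukocytes. A transcript of a lung piece is therefore a sum over host and tumour cells, and in bulk RNA fewer cells of a type and less RNA per cell cannot be told apart.

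Several tumour lungs stood apart. WT tumour replicates 1 and 4 had the squamous epithelial keratin Krt13 at 22600 and 9776, against 17.5 to 272 in the other WT tumour lungs. The same pair had Myh6, the heart muscle myosin, at 2423 and 2633, against 42.4 to 102 in the other WT tumour lungs. Among MT2 tumour lungs, replicate 4 had the highest Krt13 (612.7) and Myh6 (643.3), against up to 88.5 and 115.6 in the others. Transcripts of a skeletal muscle gene list summed to 26140 in this lung and to 71.6 to 689 in the other MT2 tumour lungs. In WT tumour replicates 1 and 4 that sum was 32210 and 8998. A marker transcript of lung epithelium also varied. Sftpc, the surfactant protein C of alveolar type 2 cells, was 83330, 35880, 29540, 34910 and 16350 in WT tumour replicates 1 to 5 and 4598, 6542, 11250, 39570 and 97270 in MT2 tumour replicates 1 to 5. MT2 tumour replicates 4 and 5 and WT tumour replicate 1 thus had the most Sftpc of the tumour lungs, and tumour-free lungs ranged from 169500 to 215900. Ddx3y of the Y chromosome was 123 to 672 in tumour lungs and 0.91 to 5.78 in tumour-free lungs, and its source was not tested. The median within-group SD of a gene on the log2 scale was 0.398 in WT tumour and 0.506 in MT2 tumour lungs, against 0.163 and 0.143 in WT and MT2 tumour-free lungs. Deposited values give no raw depth, which is therefore unknown.

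**Figure D1:**
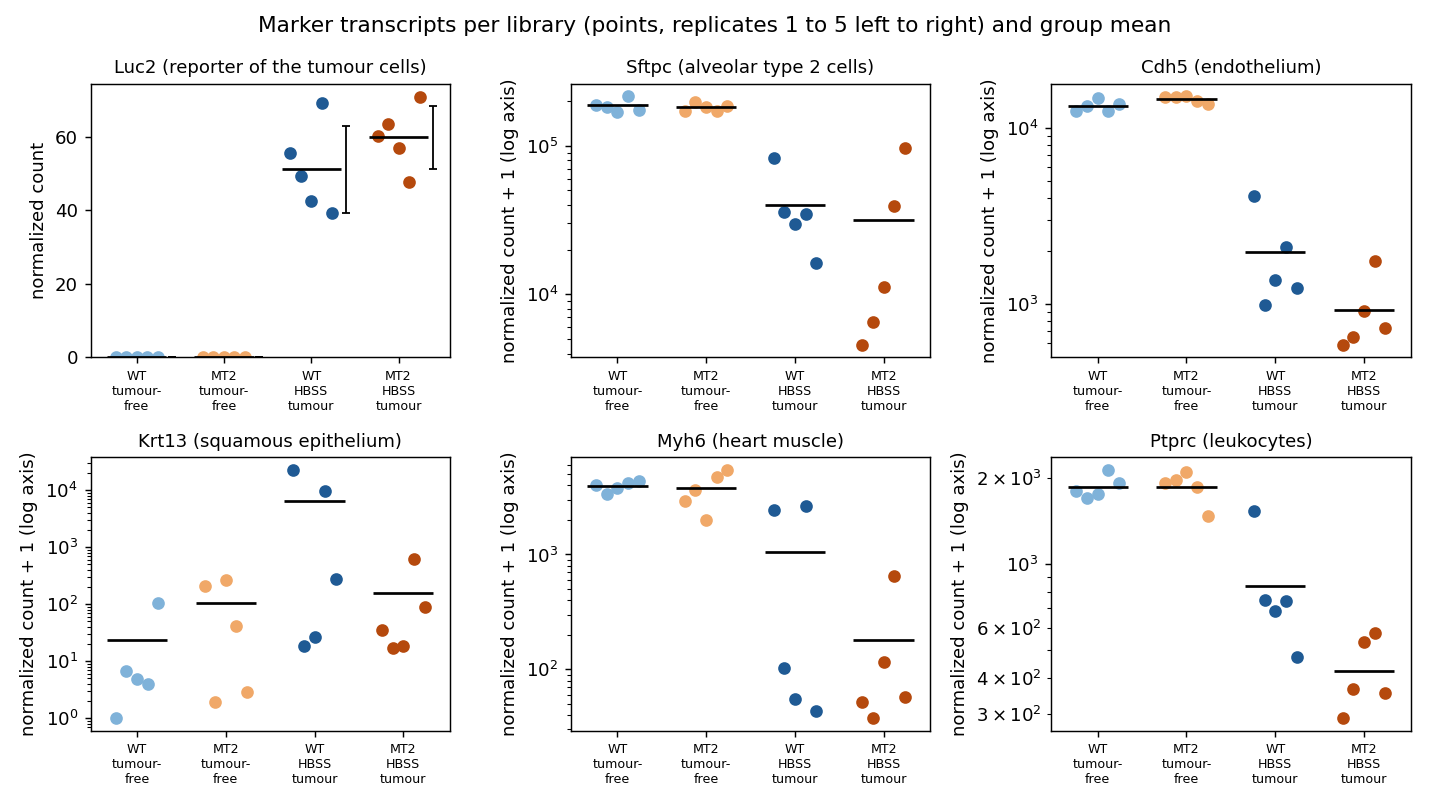
Normalized counts of 6 marker transcripts in each of the 20 libraries, by group, with the group mean as a line. Luc2 is on a linear axis with the SD as an error bar, and the other genes are on a log axis after adding 1. Luc2 was 0 in all 10 tumour-free lungs, the highest Krt13 values were those of WT tumour replicates 1 and 4, and Sftpc spread more widely among tumour lungs than among tumour-free lungs.

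The values are the normalized counts of the deposited table. Differences are of log2(value + 1), and limma, a linear model fitted to all genes at once, gives each an SE and a p adjusted over the 17927 genes tested. The mutated gene itself had opposite differences in the 2 genotypes. Timp2 lies on chromosome 11 (118301069 to 118355740, minus strand, GRCm38). Its normalized counts were 10320, 10550, 10600, 10150 and 11490 in WT and 6237, 5948, 6208, 5950 and 6184 in MT2 tumour-free lungs, groups that did not overlap. That genotype difference was -0.80 on the log2 scale (limma adjusted p = 1.63e-07 with only the 10 tumour-free lungs in the fit, 0.394 with all 20). With tumour they were 6770, 6541, 5753, 7781 and 7656 in WT lungs and 8697, 10260, 11990, 6582 and 6512 in MT2 lungs. All WT tumour lungs were thus below all WT tumour-free lungs, and all MT2 tumour lungs were above all MT2 tumour-free lungs. The tumour difference was -0.63 ± 0.14 (log2 ± SE, limma adjusted p = 0.000793) in WT and 0.49 ± 0.14 (limma adjusted p = 0.0052) in MT2 mice. The interaction of 1.12 ± 0.20 did not pass the threshold of 0.05 over all genes (limma adjusted p = 0.089). It passed without MT2 tumour replicate 5 (1.22, limma adjusted p = 0.00767), without MT2 tumour replicate 4 (1.21, 0.0125) and without WT tumour replicate 5 (1.16, 0.0411). The gene-level values do not separate the mutated from the intact part of the transcript, nor host from tumour cell transcripts.

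Such opposite moves without overlap in either genotype were seen in 5 genes. Lower with tumour in WT and higher in MT2 mice were 3 of the genes tested (0.0167%): Timp2, the stress-responsive Sesn1 (interaction 1.33) and Borcs5 (0.57), which encodes a subunit of a complex that positions lysosomes. The opposite was seen in 2 genes (0.0112%). They were Calr (interaction -0.69), which encodes the calcium-binding chaperone calreticulin of the endoplasmic reticulum, and Ggta1 (-0.50), which encodes a galactosyltransferase. None of the 5 interactions passed the threshold in the fit of all 20 libraries without library weights or rescaling. In the 20 fits that left out 1 library, Timp2 and Sesn1 each passed in 3 and Calr in 2. Sesn1 passed without MT2 tumour replicate 3, among others. With library weights per group Timp2 and Sesn1 passed (limma adjusted p = 0.0161 and 0.024), and with upper-quartile rescaling Timp2 passed (0.0491). Borcs5 and Ggta1 were chosen after their values were seen.

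Tumour content, as far as Luc2 and Hmga2 show it, overlapped between WT and MT2 tumour lungs. With so few lungs, the permutation tests below cannot show that it was equal. Luc2 was 55.6, 49.2, 42.4, 69.2 and 39.3 in WT and 60.3, 63.4, 57, 47.6 and 71 in MT2 tumour lungs, and it was listed at 0 in every tumour-free lung. The mean in MT2 was 0.239 higher on the log2 scale (two-sided exact permutation p = 0.2, adjusted p = 0.4 over 2 genes). Hmga2, which encodes a chromatin architecture protein of embryos and many tumours, was 2212, 3641, 3711, 4242 and 4713 in WT and 2624, 4392, 5070, 3735 and 4324 in MT2 tumour lungs, which overlapped in 8 of the 10 lungs (log2 0.132, exact permutation p = 0.57, adjusted p = 0.57). Among 19 candidate tumour cell transcripts tested, the median interaction was 0.04, against -0.06 over all genes tested. The oncofetal RNA-binding protein gene Igf2bp3 had the smallest p of them, with 34.9, 81.3, 91.2, 75.4 and 129.9 in WT and 161, 139, 159.6, 152 and 70.2 in MT2 tumour lungs (interaction 1.31 ± 0.47, limma adjusted p = 0.324). Areg, which encodes the growth factor amphiregulin, had an interaction of -1.12 ± 0.42 (limma adjusted p = 0.361).

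Tumour and tumour-free lungs differed at most genes in either genotype. Limma called 12014 of 17927 genes in WT mice (67.0%, 5656 higher and 6358 lower with tumour) and 12853 in MT2 mice (71.7%, 6094 higher and 6759 lower). The interaction was called at 4 genes (0.0223%), all 4 negative and none positive. At an unadjusted p under 0.05 there were 693 positive (3.87%) and 1083 negative genes (6.04%). The values were shifted to the negative side, with 10031 negative and 7896 positive interactions, a median of -0.0579 and a 5th and 95th percentile of -1.28 and 0.626. The 2 tumour differences share no sample, and the plot of one against the other shows the 4 genes below the diagonal. Genotype alone was called at 0 genes (0%) in tumour-free lungs and at 538 genes (3.00%) in tumour lungs, 175 higher and 363 lower in MT2. The count in tumour lungs rests on an estimate of spread shared with the less variable tumour-free lungs. With only the 10 tumour lungs in the fit it was 0, and with only the 10 tumour-free lungs 4 genes were called between genotypes.

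**Figure D2:**
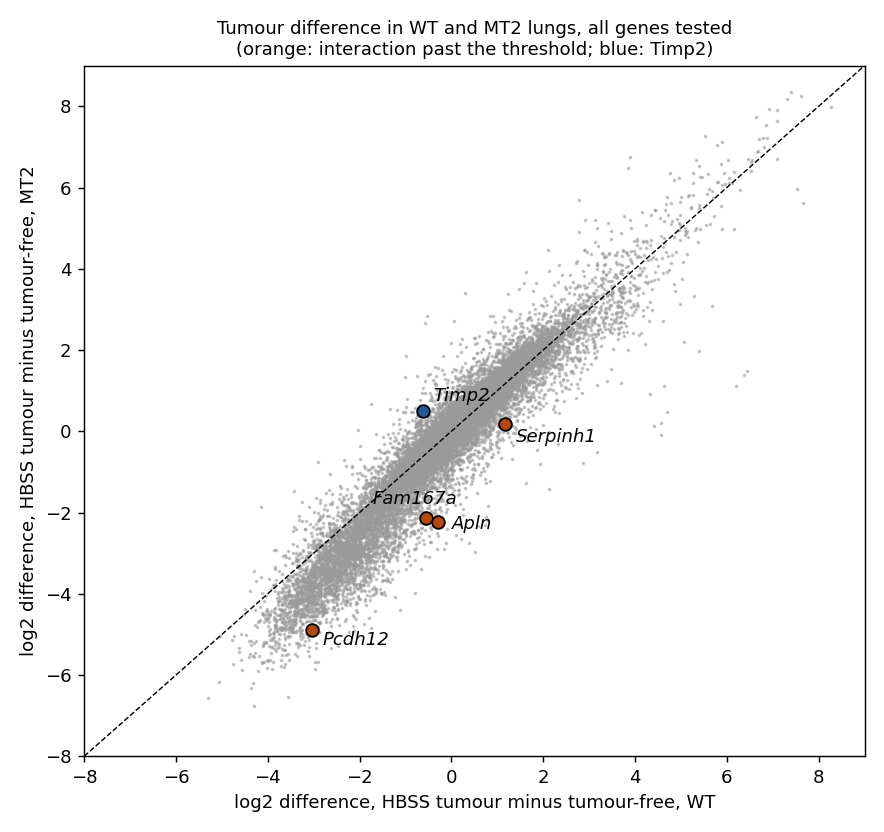
Log2 difference between tumour and tumour-free lungs in WT mice (x axis) and in MT2 mice (y axis) for the 17927 genes tested. Each grey point is a gene and the dashed line marks equal differences. The 4 genes with a called interaction (orange) lie below the line and Timp2 (blue) above it.

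Apln encodes apelin, a secreted peptide of endothelial and other cells that signals through the receptor Aplnr and is known from vessel growth. It had the smallest p of all genes. Its normalized counts were 1061, 1076, 927, 1078 and 1310 in WT and 1126, 1114, 1417, 1048 and 1184 in MT2 tumour-free lungs. In WT tumour lungs they were 1027, 607, 956, 872 and 1019, and in MT2 tumour lungs 216, 157, 408, 242 and 277. The MT2 tumour lungs were below every other lung of the comparison. With tumour the level dropped from 1178 ± 142 (SD, n = 5) to 259.8 ± 93.6 in MT2 mice (log2 -2.24 ± 0.19, limma adjusted p = 1.1e-08), while the WT means were 1091 ± 138 and 896 ± 173 (log2 -0.30 ± 0.19, limma adjusted p = 0.179). The interaction was -1.94 ± 0.27 (limma adjusted p = 0.00878).

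Serpinh1 encodes HSP47, the collagen chaperone of the endoplasmic reticulum. Its values were 4434, 4249, 4225, 4406 and 5095 in WT and 5601, 5661, 5711, 5614 and 6054 in MT2 tumour-free lungs. With tumour they were 9334, 10970, 8180, 10570 and 11470 in WT and 6572, 6786, 6032, 6195 and 6781 in MT2 lungs. All WT tumour lungs were above all MT2 tumour lungs, and in tumour-free lungs all MT2 values were above all WT values. The gene rose with tumour in WT mice, from 4482 ± 355 to 10103 ± 1333 (log2 1.17 ± 0.10, limma adjusted p = 1.3e-08). In MT2 mice it was 5728 ± 187 and 6473 ± 344 (log2 0.18 ± 0.10, limma adjusted p = 0.123). The interaction was -0.99 ± 0.14 (limma adjusted p = 0.00878). Part of it thus comes from the tumour-free baseline, where the log2 difference of MT2 to WT was 0.36 (limma adjusted p = 0.0366 with only the 10 tumour-free lungs in the fit, 1 with all 20).

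Fam167a had 276, 329.7, 338, 251.5 and 287 in WT and 316, 266, 330.1, 337 and 332 in MT2 tumour-free lungs. With tumour it was 238, 216, 138, 204 and 229 in WT and 70.5, 46.2, 98.6, 73.3 and 76 in MT2 lungs, which did not overlap. The gene was lower with tumour in both genotypes, with log2 -0.55 in WT (limma adjusted p = 0.0108) and -2.13 in MT2 mice (limma adjusted p = 6.4e-09), with an interaction of -1.59 ± 0.25 (limma adjusted p = 0.023). Apln lies on chromosome X (48025146 to 48034853, minus strand), Serpinh1 on chromosome 7 (99345376 to 99353239, minus strand) and Fam167a on chromosome 14 (63436394 to 63465498, plus strand) of GRCm38.

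Pcdh12, on chromosome 18, encodes protocadherin 12, an adhesion protein of endothelial cells. It was 757, 551, 798, 825 and 934 in WT and 1028, 1075, 1045, 907 and 805 in MT2 tumour-free lungs, and 147, 91.8, 74, 96.4 and 66.6 in WT and 26.6, 41.9, 21.3, 44.7 and 29.2 in MT2 tumour lungs. It fell with tumour in both, with log2 -3.04 in WT and -4.89 in MT2 mice (limma adjusted p = 1.1e-09 and 2.2e-12). The interaction was -1.85 ± 0.31 (limma adjusted p = 0.0316). Cdh5, the cadherin that defines endothelium, was also lower with tumour. It was 12470 to 14870 in WT and 13720 to 15230 in MT2 tumour-free lungs, and 4104, 994, 1374, 2114 and 1239 in WT and 588, 649, 912, 1756 and 735 in MT2 tumour lungs. The part of endothelial content in the results for Apln and Pcdh12 was not tested.

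Whether each of the 4 genes was called depended on the lungs in the fit. Apln and Serpinh1 were called in each of the 20 fits that left out 1 library, with interactions from -2.12 to -1.78 and from -1.06 to -0.94. Fam167a was called in 11 and Pcdh12 in 7 of those 20 fits, with limma adjusted p up to 0.0754 and 0.104 in the others. None of the 4 was called without both WT tumour lungs that had squamous and heart transcripts (limma adjusted p of 0.0797 for Apln, 0.0625 for Serpinh1 and 0.136 for Fam167a and Pcdh12). Their interactions were then -1.87, -0.9994, -1.504 and -1.60. MT2 tumour replicate 4 stayed in that fit, and no other pair of libraries was left out. Whether the lost calls go with these lungs or with fewer lungs was not tested. With WT tumour replicates 1 and 4 left out, 1231 genes had an unadjusted p under 0.05. None of the 4 was called either in a fit that added the 10 lungs treated with recombinant TIMP2 (limma adjusted p of 0.054 for Apln, 0.331 for Serpinh1 and Fam167a and 0.439 for Pcdh12). The added lungs do not enter the contrast, and the interactions were the same as in the fit of 20 libraries. The SE were larger, at 0.332 in place of 0.275 for Apln and 0.24 in place of 0.142 for Serpinh1. For Fam167a the SE was 0.387 in place of 0.251, and for Pcdh12 0.502 in place of 0.306. Compared directly between genotypes with only the 10 tumour lungs in the fit, the log2 differences of MT2 to WT were -1.83 for Apln, -0.63 for Serpinh1, -1.495 for Fam167a and -1.51 for Pcdh12 (limma adjusted p of 0.152, 0.421, 0.376 and 0.421).

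**Figure D3:**
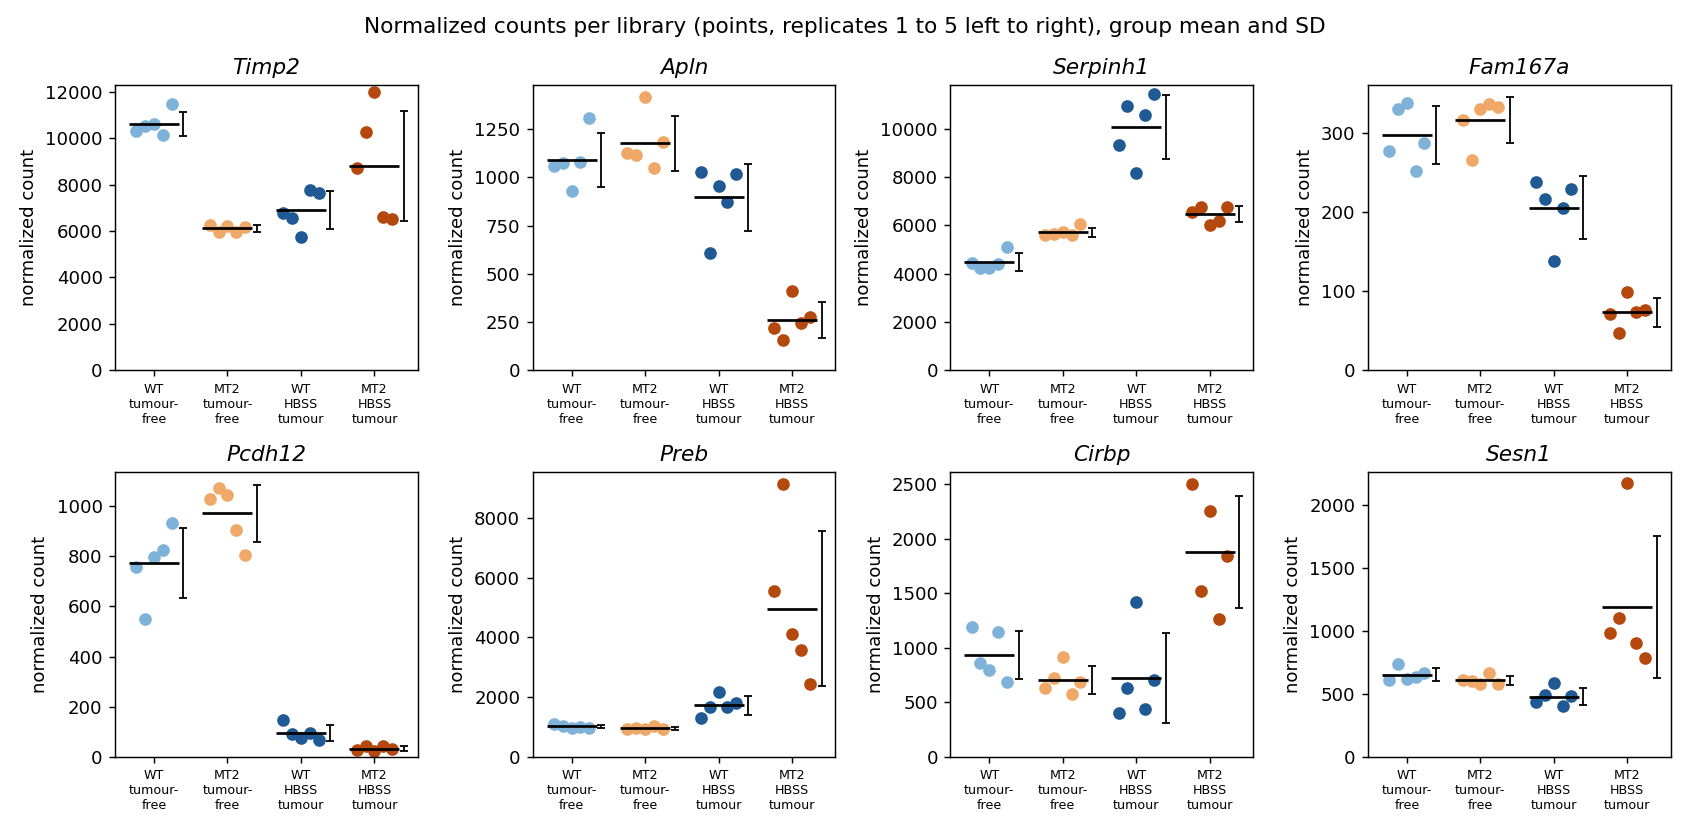
Normalized counts of Timp2, the 4 genes with a called interaction, and Preb, Cirbp and Sesn1, whose positive interactions were not called. Points are the 5 libraries of each group, with the mean as a line and the SD as an error bar. MT2 tumour lungs lie below WT tumour lungs without overlap for Apln, Serpinh1, Fam167a and Pcdh12, and above them for Preb and Sesn1.

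The promoters of the 2 genes that were called in every such fit are shown because Serpinh1 is a known heat shock gene and Apln a known hypoxia gene, and members of both groups are described below. Both run from 250 bases before to 50 bases after the start listed by RefSeq (GRCm38.p6), on the strand of the gene. Capitals mark the heat shock letters GAANNTTC or TTCNNGAA and the hypoxia letters ACGTG or CACGT, which are also part of the E-box CACGTG. Each pair covers both strands, and neighbouring heat shock matches can share bases.
Apln, chrX:48034804-48035103, minus strand: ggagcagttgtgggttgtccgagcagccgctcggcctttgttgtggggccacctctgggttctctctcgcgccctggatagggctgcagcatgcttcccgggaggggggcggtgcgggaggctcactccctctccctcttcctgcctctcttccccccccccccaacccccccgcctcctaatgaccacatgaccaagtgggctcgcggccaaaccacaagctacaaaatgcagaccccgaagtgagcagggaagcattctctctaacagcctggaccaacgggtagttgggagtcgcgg
Serpinh1, chr7:99353190-99353489, minus strand: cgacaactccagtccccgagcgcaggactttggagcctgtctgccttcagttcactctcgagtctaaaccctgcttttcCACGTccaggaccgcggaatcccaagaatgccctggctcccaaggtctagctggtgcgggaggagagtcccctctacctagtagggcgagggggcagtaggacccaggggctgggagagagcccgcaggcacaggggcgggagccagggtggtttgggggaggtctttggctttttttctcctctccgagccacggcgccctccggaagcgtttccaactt
The Apln window held neither of these letters and the Serpinh1 window held the hypoxia letters 1 time. Of 12158 tested genes with a listed promoter, 14.2% held the heat shock and 27.9% the hypoxia letters in at least 1 window. Of the 27 genes named by rule (Timp2, Luc2, Hmga2 and 12 on each side), 21 had a listed promoter. Among these, 2 (9.52%) held the heat shock letters and 2 (9.52%) the hypoxia letters. A match describes the letters only.

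Below the 4 called genes, the next 8 genes with negative interactions, ordered by p, did not pass the threshold (limma adjusted p from 0.0935 to 0.101). They are given by value. Ccnd1, the cyclin D1 gene of the G1 phase, was 4361, 4144, 3558, 5478 and 3793 in WT and 2423, 2928, 2123, 2807 and 2779 in MT2 tumour lungs, which did not overlap (interaction -0.94 ± 0.18). H2-Ob, a chain of the MHC class II-related molecule DO of B cells, was 213, 80.9, 104, 82.8 and 34.3 in WT and 9.19, 11.8, 8.7, 29.5 and 16.7 in MT2 tumour lungs (interaction -2.66 ± 0.52). Loxl2, a lysyl oxidase that crosslinks collagen, was 366, 257, 238, 245 and 198 in WT and 177, 75.9, 109.9, 172 and 60.9 in MT2 tumour lungs (interaction -1.67 ± 0.33). In tumour-free lungs Loxl2 was higher in MT2 (788 to 961) than in WT (554 to 698) without overlap, so its interaction, like that of Serpinh1, has a part in the baseline. The others were the kinesin gene Kif26b (-1.61), the myeloid receptor gene Pilra (-1.005), Basp1 (-1.30), which encodes a membrane protein of growing neurites, Igsf10 (-1.51) and Calr (-0.69).

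On the positive side no gene was called. Beside Timp2, the 12 genes of smallest p among those with a mean of 50 or more in a group, numbered gene models, receptor segments, Xist and Y-linked genes left out, had limma adjusted p from 0.0935 to 0.156. Preb, a regulator of prolactin transcription that also acts in export from the endoplasmic reticulum, was 1311, 1651, 2160, 1664 and 1809 in WT and 5543, 9151, 4112, 3587 and 2443 in MT2 tumour lungs (interaction 1.499 ± 0.32). All MT2 tumour lungs were above all WT tumour lungs, which were above all tumour-free lungs, where it ranged from 913 to 1110. Cirbp, a cold-inducible RNA-binding protein gene, was 399, 632, 1421, 441 and 701 in WT and 2504, 1517, 2254, 1264 and 1843 in MT2 tumour lungs, with 1 WT lung inside the MT2 range (interaction 1.89 ± 0.39). Sesn1, which encodes the stress-responsive sestrin 1, was 431, 489.8, 583, 400.3 and 478 in WT and 982, 1104, 2172, 900.1 and 785 in MT2 tumour lungs (interaction 1.33 ± 0.27). Replicate 3 was the highest of these MT2 lungs, and the groups did not overlap. Smaller positive values were those of Mettl27 (1.13), the Polycomb gene Cbx7 (0.87), the glucose transporter gene Slc2a8 (0.74), the ferroptosis suppressor gene Aifm2 (0.65), the zinc finger genes Zfp740 (0.60), Zkscan14 (0.86) and Zbtb22 (0.69), Agfg2 (0.96) and Amigo2 (1.02). Aifm2, Agfg2, Zbtb22 and Amigo2 passed the threshold under none of the 33 alternatives.

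Gene lists describe what surrounded these genes. Of 43 lists, 41 had a negative median interaction, while the median of all genes tested was -0.0579. No list held more than 1 called gene. Some genes, such as Cd74 and Vegfa, are in more than 1 list, so the lists are not independent of each other. Counts below are of members at an unadjusted p under 0.05, to be read against 6.04% negative and 3.87% positive over all genes with all libraries. Beyond the 2 members of smallest p per list, members named below were chosen after their values were seen. The plot of list medians shows each list with all libraries and without WT tumour replicates 1 and 4, where 35 of the 43 medians were negative. That removal took out WT lungs only, and MT2 tumour replicate 4 stayed in. Without MT2 tumour replicate 4 instead, 41 medians were negative. Over all 17927 genes tested, leaving out both WT lungs gave 738 negative and 493 positive genes at an unadjusted p under 0.05. The counts were 1083 and 693 with all libraries, and 923 and 591 without WT tumour replicate 1 alone. Without WT tumour replicates 1 and 4 the negative counts given below were 3 in place of 5 for metalloproteinases and for hypoxia genes, 4 in place of 7 for TGF-beta and Wnt response genes and 2 in place of 5 for smooth muscle genes. They were 2 in place of 4 for fibroblast and for epithelial to mesenchymal transition genes, 0 in place of 2 for immediate early genes and 5 in place of 3 for erythroid and platelet genes. They were 2 in place of 4 for monocyte and 1 in place of 3 for suppressive myeloid genes. Fibrillar and other matrix genes had 11 in place of 10 and collagen crosslinking genes 7 in place of 5. Basement membrane genes had 3 in place of 4 and plasminogen genes 2 in place of 3. Endothelial, alveolar type 2 and cytokine genes had 1 in place of 2, alveolar type 1 genes 0 in place of 2, and TIMP2 partner, ciliated and neutrophil genes 0 in place of 1.

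**Figure D4:**
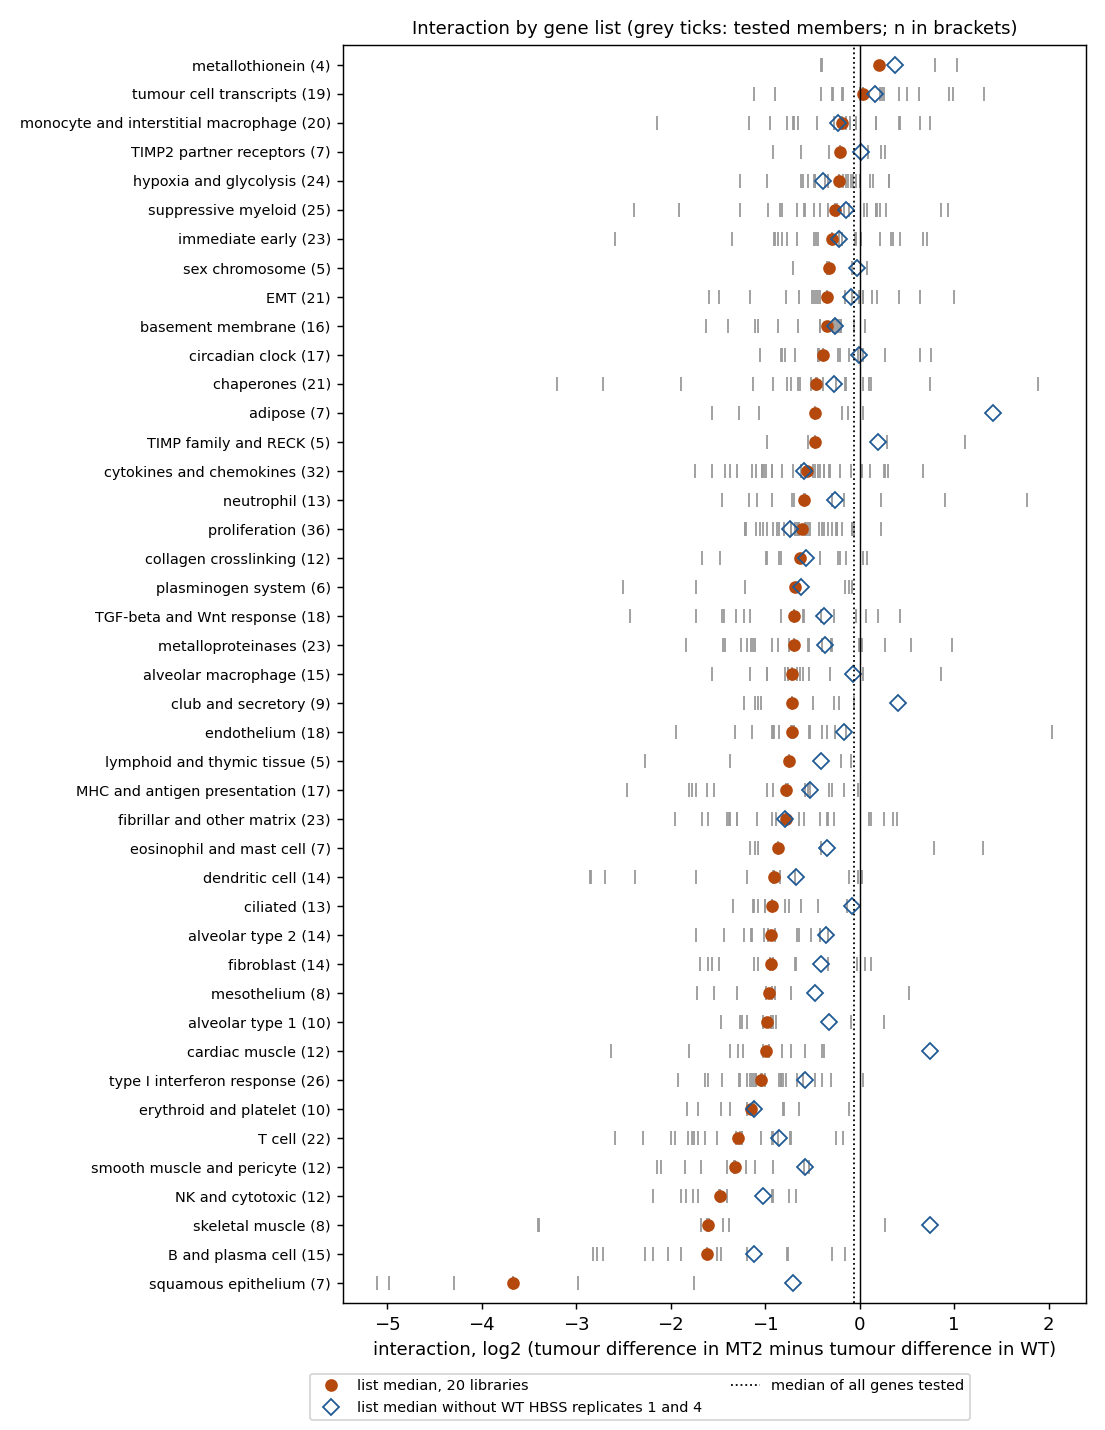
Interaction of each gene list on the log2 scale. Grey ticks are tested members, orange points the list median with 20 libraries, blue diamonds the median without WT HBSS replicates 1 and 4, and the dotted line the median of all genes tested. Most medians lie between -1.6 and 0, and those of squamous epithelium, skeletal muscle, cardiac muscle and adipose move the most when the 2 libraries are left out.

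Among the inhibitors of metalloproteinases, Timp2 was the one member of 5 with a positive interaction at an unadjusted p under 0.05. Timp1, an inhibitor induced in injured and tumour tissue, was 342, 846, 504, 570 and 416 in WT and 274, 186, 247, 312 and 536 in MT2 tumour lungs, which overlapped (interaction -0.98 ± 0.36, limma adjusted p = 0.352). Reck, a membrane-anchored inhibitor gene, had -0.48 and Timp3 -0.55. Of 23 metalloproteinase genes, 5 were negative and 1 positive at an unadjusted p under 0.05. One of the negative ones was Adam8, a protease gene of leukocytes and tumour cells (1040 to 1641 in WT and 764 to 1241 in MT2 tumour lungs, interaction -0.54 ± 0.22). The positive one was Mmp11, a stromal protease gene (297 to 558 and 508 to 874, interaction 0.55 ± 0.23). Of 7 genes for receptors and partners of TIMP2, Ptpn6, a phosphatase of leukocytes, passed an unadjusted p of 0.05 (-0.62 ± 0.23), and Mmp14 had 0.27.

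The plasminogen system activates proteases at the cell surface. All 6 of its tested members had negative values and 3 were at an unadjusted p under 0.05. The activators Plau and Plat and the receptor gene Plaur were near 0 (-0.15 to -0.09). Serpinb2, a serpin gene of macrophages and epithelia, was 120.5, 585, 60.6, 23.1 and 20.2 in WT and 10.2, 11.8, 7.73, 23.8 and 7.51 in MT2 tumour lungs (interaction -2.51 ± 0.92, limma adjusted p = 0.346).

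Fibrillar collagens are folded, hydroxylated and crosslinked by dedicated enzymes before they bear load. Of 12 collagen crosslinking and folding genes, 5 were negative at an unadjusted p under 0.05 and 1 of these, Serpinh1, was called. P4ha1, a collagen prolyl hydroxylase, was 2422, 2014, 1874, 2025 and 2654 in WT and 1019, 1015, 1976, 1132 and 1252 in MT2 tumour lungs, against 1235 to 1475 and 1335 to 1611 in the tumour-free groups (interaction -0.98 ± 0.21, limma adjusted p = 0.14). The rest of the 5 were Loxl2, given above, Loxl1 (-1.47) and Plod3 (-0.42), whereas Lox and Loxl3 had 0.07 and 0.04. Of 23 fibrillar collagen and other matrix genes, 10 were negative at an unadjusted p under 0.05 and none positive. Sparc, a collagen-binding matrix protein gene, was 16370, 11790, 13640, 14020 and 14040 in WT and 8958, 6416, 8041, 12680 and 9695 in MT2 tumour lungs, with 1 MT2 lung inside the WT range (interaction -0.93 ± 0.22). Col5a2, a fibrillar collagen chain, had -1.30 ± 0.34, with 234 to 508 in WT and 122 to 374 in MT2 tumour lungs. The median of this matrix list was -0.778 with all libraries, -0.785 without WT tumour replicates 1 and 4, -1.06 without MT2 tumour replicate 4 and -0.558 without MT2 tumour replicate 5. Of 16 basement membrane genes 4 were negative, with the smallest p at the laminin gene Lama4 (-1.11 ± 0.29). In these lists tumour-free MT2 lungs were above WT lungs in the median (log2 0.281 for the matrix, 0.237 for crosslinking and 0.216 for the basement membrane list).

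TGF-beta and Wnt are secreted signals that act on fibroblasts and epithelium. Of 18 TGF-beta and Wnt response genes, 7 were negative at an unadjusted p under 0.05 and none positive. Ltbp2, a latent TGF-beta binding protein gene, was 569, 249.8, 490.4, 479 and 400 in WT and 180.5, 169.6, 205, 497 and 135 in MT2 tumour lungs, where replicate 4 alone of MT2 reached the WT values (interaction -1.22 ± 0.37, limma adjusted p = 0.258). Tgfb1, the ligand, had -0.48 ± 0.19. The median of the list was -0.696, and -0.373 without WT tumour replicates 1 and 4.

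Markers of the vessel wall and of fibroblasts had negative median tumour differences in both genotypes (-2.94 to -2.19 in WT and -3.62 to -3.52 in MT2). Of 12 smooth muscle and pericyte genes, all 12 interactions were negative and 5 had an unadjusted p under 0.05. Acta2, the smooth muscle actin, was 1865, 559, 591, 1085 and 823 in WT and 204, 119, 227, 685 and 346 in MT2 tumour lungs, with MT2 replicate 4 inside the WT range (interaction -1.85 ± 0.50, limma adjusted p = 0.212). The pericyte proteoglycan gene Cspg4 had -1.32 ± 0.38. The list median of -1.32 was -0.574 without WT tumour replicates 1 and 4. Of 14 fibroblast markers 4 were negative, with the smallest p at Col14a1 (-1.07 ± 0.26). Of 18 endothelial genes 2 were negative at an unadjusted p under 0.05, Apln and Cdh5 (-1.14 ± 0.43), and Ackr1, a chemokine scavenger of venules, was positive (2.03 ± 0.82, limma adjusted p = 0.401). Ackr1 was low throughout, with means of 8.78 in WT and 4.25 in MT2 tumour-free lungs and 11.8 and 17.3 with tumour. The endothelial list summed to 7536 to 32540 in WT tumour and 4374 to 16280 in MT2 tumour lungs, ranges that overlap, and to 90550 to 101200 in tumour-free lungs. Its median of -0.719 was -0.168 without WT tumour replicates 1 and 4.

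B cell, natural killer cell and T cell lists had the most negative medians of the immune lists (-1.62, -1.48 and -1.28). B cells recognise antigen through an immunoglobulin receptor, and of 15 genes of B and plasma cells 9 were negative at an unadjusted p under 0.05. Fcer2a, a low-affinity IgE receptor gene of B cells, was 74.4, 12, 19.4, 24.1 and 13.1 in WT and 5.11, 1.07, 2.9, 8.56 and 0.835 in MT2 tumour lungs (interaction -2.71 ± 0.67, limma adjusted p = 0.164), where the groups did not overlap. Its low MT2 values rest on few reads, and its interaction ranged from -3.04 to -1.44 over the 33 alternatives.

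Of 22 T cell genes, all 22 interactions were negative and 11 had an unadjusted p under 0.05. Cd5, a brake on T cell receptor signalling, was 59.2, 15.3, 8.49, 26.2 and 8.07 in WT and 1.02, 1.07, 3.87, 3.81 and 4.17 in MT2 tumour lungs, without overlap (interaction -2.58 ± 0.62, limma adjusted p = 0.155). These MT2 values are low as well, and the Cd5 interaction ranged from -2.99 to -1.32 over the 33 alternatives. Lck, the kinase of the T cell receptor, was 184, 84.2, 57, 91.2 and 22.2 in WT and 10.2, 7.53, 20.3, 30.4 and 24.2 in MT2 tumour lungs, with 2 MT2 lungs inside the WT range (interaction -1.998 ± 0.59). Summed over the list, T cell transcripts were 2143, 935, 772, 1054 and 355 in WT tumour lungs and 217, 208, 560.1, 757 and 555 in MT2 tumour lungs, against 2074 to 2892 in tumour-free lungs. WT replicate 1 was the highest of the tumour lungs and overlapped the tumour-free range. Without WT tumour replicates 1 and 4 the list medians were -0.856 for T cells and -1.12 for B and plasma cells, against -1.28 and -1.62 with all libraries, and 8 members of each list were negative at an unadjusted p under 0.05.

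Of the natural killer and dendritic cell genes 5 of 12 and 5 of 14 were negative at an unadjusted p under 0.05. Without WT tumour replicate 1 the natural killer count was 3, and without replicates 1 and 4 the counts were 1 and 3. Klrd1, the CD94 chain of natural killer cell receptors, was 36.8, 56.9, 25.5, 26.2 and 14.1 in WT and 7.15, 1.07, 4.83, 11.4 and 16.7 in MT2 tumour lungs (interaction -1.89 ± 0.61), and the cytotoxic protease gene Gzma had -2.18 ± 0.80. Xcr1, the chemokine receptor of cross-presenting dendritic cells, was 22.4, 24.1, 7.28, 15.7 and 8.07 in WT and 0, 0, 0.966, 9.51 and 0.835 in MT2 tumour lungs (interaction -2.84 ± 0.70). Siglech, which marks plasmacytoid dendritic cells, was listed at 0 in 4 of 5 MT2 tumour lungs and at 8.56 in replicate 4, against 5.04 to 19.7 in WT tumour lungs. Values this low rest on few reads, and the Xcr1 interaction ranged from -3.43 to -1.05 over the 33 alternatives.

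MHC class II genes present antigen to helper T cells, and 8 of 17 genes of antigen presentation were negative at an unadjusted p under 0.05. Ciita, their master regulator, was 472, 146, 69.1, 180.2 and 42.4 in WT and 15.3, 12.9, 24.2, 40 and 25 in MT2 tumour lungs, without overlap (interaction -2.46 ± 0.62, limma adjusted p = 0.17). Cd74, the invariant chain, was 13530, 4700, 3060, 6443 and 2671 in WT and 961, 508, 2551, 3061 and 1704 in MT2 tumour lungs (interaction -1.73 ± 0.60), where 1 MT2 lung lay inside the WT range. Without WT tumour replicates 1 and 4, 3 of the 17 were at an unadjusted p under 0.05 and the median was -0.522, against -0.775.

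Monocyte and interstitial macrophage genes had a median of -0.189, with 4 negative and 1 positive of 20, and 25 suppressive myeloid genes had -0.262, with 3 negative. Treml4, a receptor gene of monocytes and dendritic cells, was 33.2, 19.7, 27.9, 32.5 and 19.2 in WT and 2.04, 5.38, 0.966, 14.3 and 6.68 in MT2 tumour lungs, without overlap (interaction -2.15 ± 0.56). Ccr2, the receptor that recruits monocytes, had -0.95 ± 0.30. The single positive member was Apoe, the apolipoprotein E gene of macrophages (mean 21981 in WT and 32806 in MT2 tumour lungs, interaction 0.74 ± 0.25), which was named after its value was seen. Mgl2, a lectin of dendritic cells and macrophages, had -2.39 ± 0.77. The lists of alveolar macrophages (median -0.711) and of eosinophils and mast cells (-0.868) had no member at an unadjusted p under 0.05, and the neutrophil list (-0.587) had 1 of 13, Hdc (-1.45 ± 0.63). Of 32 cytokine and chemokine genes 2 were negative, Cxcl12 (-1.43 ± 0.52) and Lif (-1.02 ± 0.41).

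Type I interferon induces antiviral and antigen-processing genes. Of its 26 genes, 25 interactions were negative with a median of -1.04, and 1 had an unadjusted p under 0.05. That was Ifi27, at 1035, 1129, 928, 1086 and 610.2 in WT and 356, 389, 375, 507 and 778 in MT2 tumour lungs (interaction -1.04 ± 0.26, limma adjusted p = 0.17). The summed list was 12250, 9154, 5985, 11600 and 4252 in WT and 2795, 2705, 19850, 4233 and 3660 in MT2 tumour lungs. MT2 replicate 3 was the highest of the 10 tumour lungs, and the other 4 MT2 lungs were below all WT tumour lungs.

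Epithelial markers of the lung were negative in the median but were rarely at an unadjusted p under 0.05. Alveolar type 1 cells had 2 of 10 (Pdpn -1.24 and Vegfa -1.27), alveolar type 2 cells 2 of 14 (Cd74 and Etv5, -0.52), ciliated cells 1 of 13 (Tubb4b, -0.44) and club and secretory cells and mesothelium 0 of 9 and 0 of 8. Their medians of -0.717 to -0.981 were -0.477 to 0.411 without WT tumour replicates 1 and 4. Lists of tissues next to the lung had no member at an unadjusted p under 0.05: squamous epithelium (median -3.67 of 7 genes, -0.702 without the 2 libraries), skeletal muscle (-1.60 of 8, 0.748), cardiac muscle (-0.987 of 12, 0.741) and adipose tissue (-0.468 of 7, 1.41). Of 10 erythroid and platelet genes 3 were negative, among them the globin Hbb-bt (-1.47), whose reads a near copy can share. The lists of lymphoid tissue (median -0.750, 1 of 5 negative), of sex chromosome genes (-0.323, 0 of 5) and of the circadian clock (-0.384, 0 of 17) added 1 such gene, the complement receptor gene Cr2 (-2.27), also in the B cell list.

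Cell division genes were higher with tumour in both genotypes, with a median tumour difference of 3.22 in WT and 2.48 in MT2 mice. Of 36, 35 had a negative interaction and 8 an unadjusted p under 0.05. Bub1, a mitotic checkpoint kinase, was 25, 24.2, 31.6, 43.9 and 38.7 in WT and 60.7, 63.8, 50.8, 52.8 and 42.2 in MT2 tumour-free lungs, and 176, 410, 286, 333 and 273 in WT and 296, 247, 161, 206 and 248 in MT2 tumour lungs (interaction -1.06 ± 0.32, limma adjusted p = 0.26). Kif11, a spindle motor, had -1.09 ± 0.35. In tumour-free lungs the list median of MT2 against WT was 0.271 on the log2 scale, and in tumour lungs it was -0.256. Without WT tumour replicate 1 alone 17 of the 36 were negative at an unadjusted p under 0.05, and without replicates 1 and 4 it was 13.

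Chaperones keep proteins folded, and heat shock factor induces many of them through the heat shock element. Of 21 genes of this list 10 were negative and 1 positive at an unadjusted p under 0.05. Hsph1, an HSP110 chaperone, was 619, 658, 807, 431 and 850 in WT and 844, 674, 648, 995 and 1102 in MT2 tumour-free lungs. With tumour it was 4626, 1959, 868.3, 3287 and 1404 in WT and 563, 844, 616, 872 and 671 in MT2 lungs, so that 1 MT2 lung overlapped the lowest WT lung (interaction -1.89 ± 0.47, limma adjusted p = 0.164). WT replicates 1 and 4, the libraries with squamous and heart transcripts, were the highest. The means of Hspa1a were 1070 in WT and 109 in MT2 tumour lungs (interaction -3.20 ± 0.99), and those of Chordc1, an HSP90 partner, were 1085 and 639.8 (-0.92 ± 0.28). Hspa1a and its near copy Hspa1b have uncertain individual values. The positive gene was Cirbp, which cold induces. The median of the list was -0.465, and -0.276 without WT tumour replicates 1 and 4, where 7 were negative at an unadjusted p under 0.05.

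Promoters of 3 of these chaperone genes, chosen after their values were seen, show the heat shock letters in capitals, with the same window, motifs and source as above.
Hsph1, chr5:149636287-149636586, minus strand: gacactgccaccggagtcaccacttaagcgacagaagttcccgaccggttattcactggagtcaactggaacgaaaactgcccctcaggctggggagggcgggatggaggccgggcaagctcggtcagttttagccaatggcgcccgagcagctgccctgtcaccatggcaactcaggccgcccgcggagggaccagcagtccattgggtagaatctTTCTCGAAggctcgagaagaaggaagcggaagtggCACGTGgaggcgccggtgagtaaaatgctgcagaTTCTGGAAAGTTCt
Chordc1, chr9:18292017-18292316, plus strand: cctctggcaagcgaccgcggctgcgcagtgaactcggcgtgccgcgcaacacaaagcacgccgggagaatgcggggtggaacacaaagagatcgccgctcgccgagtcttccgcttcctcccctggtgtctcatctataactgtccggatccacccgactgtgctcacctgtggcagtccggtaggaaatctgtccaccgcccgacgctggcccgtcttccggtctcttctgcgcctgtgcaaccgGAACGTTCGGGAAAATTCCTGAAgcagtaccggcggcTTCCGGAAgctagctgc
Hspa1a, chr17:34972107-34972406, minus strand: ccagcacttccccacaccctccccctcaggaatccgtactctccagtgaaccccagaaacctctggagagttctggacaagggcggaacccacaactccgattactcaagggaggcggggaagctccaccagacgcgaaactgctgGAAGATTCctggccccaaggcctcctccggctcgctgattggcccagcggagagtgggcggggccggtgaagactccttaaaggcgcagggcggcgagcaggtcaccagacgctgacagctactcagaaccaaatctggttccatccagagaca
Chordc1 held the heat shock letters 5 times, Hsph1 3 times and Hspa1a 1 time, and Hsph1 also held the hypoxia letters. Of the 21 chaperone list genes, 17 had a listed promoter and 9 of these (52.9%) held the heat shock letters, against the 14.2% of tested genes. Cirbp was among the 8 without them in this window.

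Hypoxia and glycolysis genes had a median of -0.216, with 5 of 24 negative at an unadjusted p under 0.05 and none positive. Pfkl, the liver phosphofructokinase, was 1430, 1913, 2185, 2031 and 2065 in WT and 1025, 1281, 1253, 1236 and 1353 in MT2 tumour lungs, which did not overlap (interaction -0.62 ± 0.16, limma adjusted p = 0.17). P4ha1, described with collagen, is also in this list. Metallothioneins bind zinc and other metals, and 2 of the 4 genes of their list were positive and 1 negative at an unadjusted p under 0.05. Mt1 was 2635, 2194, 3363, 2128 and 3420 in WT and 3296, 3439, 6014, 4516 and 3539 in MT2 tumour lungs (interaction 0.80 ± 0.25, limma adjusted p = 0.261). Mt2 was 1781, 1386, 2185, 1074 and 2653 and 2762, 2683, 5003, 3537 and 1670 (interaction 1.03 ± 0.36, limma adjusted p = 0.308). The groups overlapped in both genes, and the zinc importer gene Slc39a10 of the same list had -0.40. Of 21 genes of the epithelial to mesenchymal transition 4 were negative, among them the integrin gene Itgb6 (-1.59 ± 0.54), and S100a4 was positive (0.9977). Of 23 immediate early genes 2 were negative, Nr4a3 (-2.59 ± 0.98) and Egr2 (-1.35 ± 0.55), and Jund was positive (0.43).

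The number of called interactions moved with single lungs. It was 2 to 6 in 16 of the 20 fits that left out 1 library. It was 2, with Apln and Serpinh1, without WT tumour replicate 2 or 4, WT tumour-free replicate 1, 4 or 5, or MT2 tumour-free replicate 1, 3, 4 or 5. Without MT2 tumour replicate 1 or 3 it was 6. It was 49 (6 positive and 43 negative) without MT2 tumour replicate 4, 55 (23 and 32) without MT2 tumour replicate 5, 21 (2 and 19) without WT tumour replicate 5 and 10 (4 and 6) without WT tumour replicate 3. The first 2 are the MT2 lungs with the most Sftpc, and WT tumour replicate 5 is the WT lung with the least. Each of these 4 sets held the 4 genes called with all libraries. The number of genes called between genotypes in tumour lungs also moved. It was 136, 225 and 347 without WT tumour replicate 4, 1 or 2, and 242 and 260 without MT2 tumour replicate 1 or 2. It was 1175, 1236 and 2050 without MT2 tumour replicate 4, WT tumour replicate 5 or MT2 tumour replicate 5, and it was 33 without WT tumour replicates 1 and 4. The part of residual lung tissue in these counts was not tested.

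**Figure D5:**
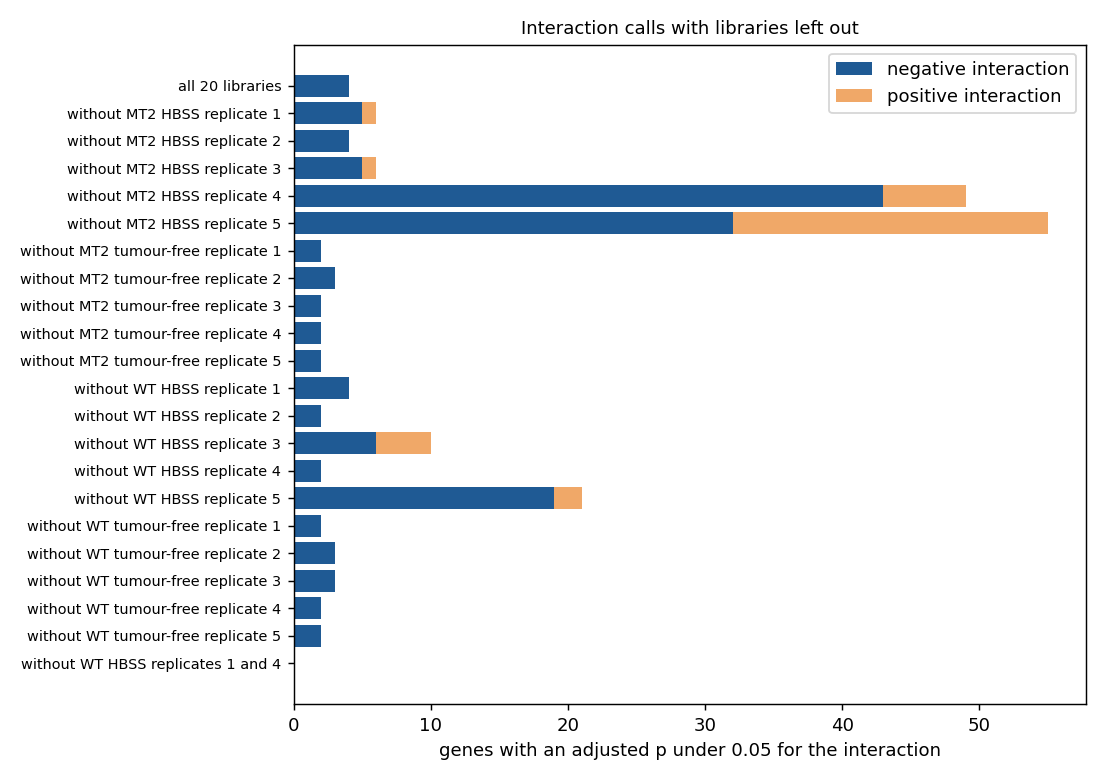
Number of genes with a limma adjusted p under 0.05 for the interaction with all 20 libraries, without each library in turn, and without WT HBSS replicates 1 and 4. Bars are split into negative (blue) and positive (orange) interactions. The count was 4 with all libraries, 49 and 55 without MT2 HBSS replicate 4 or 5, and 0 without WT HBSS replicates 1 and 4.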

How the data were processed

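RNA of 20 mouse lung samples was used, 5 in each of 4 groups taken from titles, and the 24 other samples were not analysed here except where named. The authors deposited normalized counts, a signal per gene and library, in 1 table of 26940 genes. The tools named are STAR, Bowtie2, Partek and DESeq2, with build mm10, per the submitters' processing notes. What each did, its version and the strand of counting were not given in the sources used here, so overlapping genes on opposite strands cannot be told apart. The table gives no raw depth. Values under 1e-4 (8119) were set to 0, and gene identifiers were added to 28 names that several genes share. The 17927 genes that reached 10 in 5 or more of the 20 libraries were fitted as log2(value + 1) in a model of 4 group means with limma 3.58.1 (R 4.3.3; lmFit, contrasts.fit and eBayes with trend and robust options). Fold changes on this scale understate changes of low genes. A gene was called where its p, adjusted by Benjamini-Hochberg over the whole table, was under 0.05. Luc2 and Hmga2 were compared with exact permutation tests over all arrangements of the 10 lungs. The fit was also run on simulated data, with genes drawn independently and spread pooled over the 2 genotypes. That simulation does not cover shifts shared by many genes in single lungs. Gene lists (43) have counts and medians and no test. The genes named were Timp2, Luc2 and Hmga2, then 12 on each side with a mean of 50 or more in a group (called ones by size, then by unadjusted p), and per list up to 4 called members or 2 of smallest p. Others were chosen after their values were seen. A few results are not reported here. Numbered gene models, receptor segments, Xist and Y-linked genes were left out of the 12 per side, whereas other X-linked genes were kept. Members and lists were chosen with earlier results of these data known. The labels do not say that samples of a group are separate animals, and p-values measure the spread between them, which may be partly technical. Alternatives covered the pseudocount, filter, scaling, moderation, weights, samples in the fit, Luc2 as a covariate, replicate number and each library left out. Leaving out WT tumour replicates 1 and 4 together was chosen after seeing the data.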

Additional observations from a re-analysis of the deposited data

Results flagged for a closer look

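Tumour differences between genotypes are flagged for the 4 genes whose interaction passed the threshold: Apln (-1.94), Pcdh12 (-1.85), Fam167a (-1.59) and Serpinh1 (-0.99). Another 3 genes are flagged because all tumour lungs of one genotype moved against all those of the other relative to tumour-free lungs. These were Timp2 (1.12), Sesn1 (1.33) and Calr (-0.69), whose interactions were tested and did not pass (limma adjusted p = 0.089, 0.101 and 0.101).

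In 106 groups of 5 libraries (27 genes), 5 single libraries stood apart from the rest of their group by Dixon's rule, and chance flags about 1 in 20 groups. Serpinh1 was 5095 in WT tumour-free replicate 5 (4225 to 4434 in the others) and 6054 in MT2 tumour-free replicate 5 (5601 to 5711). Pilra was 246.5 in WT tumour replicate 2 (168.2 to 190.4), Sesn1 was 2172 in MT2 tumour replicate 3 (784.6 to 1104) and Zfp740 was 1974 in WT tumour-free replicate 2 (1783 to 1835).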

How the results depend on the processing

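The 4 called interactions, with 4 negative and 0 positive, stood unchanged in number with a pseudocount of 10, without a filter, with a minimum of 50 and with median-of-ratios rescaling. Upper-quartile rescaling gave 5 with 1 positive, which was Timp2 (1.12, limma adjusted p = 0.0491). Library weights per group gave 7 with 3 positive, which were Timp2 (1.12, limma adjusted p = 0.0161), Sesn1 and Preb. All 6 intratracheal groups in 1 fit gave 0 (0 negative), with 1074 genes at an unadjusted p under 0.05, and Luc2 as a covariate centred over tumour lungs gave 7 with 1 positive. No trend and no robust option, and voom, gave 3 each. The replicate numbers do not pair the libraries (same-number correlations of deviations from -0.538 to 0.433 over 30 pairs, median 0.009, 4 above 0.1). With the replicate block 2 interactions were called (2 negative; Apln and Serpinh1), and 342 genes differed between genotypes in tumour lungs. Without WT tumour replicates 1 and 4, chosen after seeing the data, there were 0 calls (0 negative), and 33 genes differed between genotypes in tumour lungs. With only the 2 groups compared in the fit, 0 genes differed between genotypes in tumour lungs and 4 in tumour-free lungs. Leaving out 1 library gave 2 to 55 interaction calls (2 to 43 negative and 0 to 23 positive), 136 to 2050 genotype calls in tumour lungs, a Timp2 interaction of 0.99 to 1.22, and MT2 to WT differences of 0.154 to 0.353 for Luc2 and -0.043 to 0.278 for Hmga2, whose sign turned without WT tumour replicate 1 (-0.043). Interactions of Muc5b (0.28), Actc1 (0.29), Myl3 (0.057), Cidec (0.22) and Plin1 (0.88) turned positive without WT tumour replicates 1 and 4. The cause of these changes was not tested. Without raw depth no limit can be set for values listed at 0.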

Other observations

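The treated arm of the model, lungs given the same cells and recombinant TIMP2 at 200 µg per kg per day, entered the comparisons above only through the alternative fit of all 6 intratracheal groups. Its lungs were uneven in tumour content, with Luc2 at 23.3, 0, 0, 67.7 and 0 in WT and 75.5, 0.983, 50.9, 37.9 and 55.3 in MT2 replicates 1 to 5. Apln was 577, 784, 381, 544 and 914 in WT and 449, 676, 319, 611 and 670.4 in MT2, so that every treated MT2 lung except replicate 3 was above all 5 MT2 tumour lungs given HBSS, whose highest value was 407.8. Serpinh1 was 7674, 4836, 5870, 10580 and 5249 in WT and 8318, 5645, 10340, 8784 and 10170 in MT2. Fam167a was 299, 414, 383, 108 and 489.6 in WT and 265, 342, 199, 232 and 183 in MT2, where all 5 treated MT2 lungs were above the HBSS range of 46.23 to 98.57. Pcdh12 was 295, 334, 201, 113 and 410.3 in WT and 61.8, 294, 47.1, 88.4 and 97.2 in MT2. Timp2 was 10120, 9998, 8046, 5809 and 9685 in WT and 7695, 5487, 6338, 9597 and 5979 in MT2. No test was made of these values.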
